A study of Mus musculus with 6 samples.

Results

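The unfolded protein and integrated stress response genes are 32 genes of mouse liver, taken by name from the gene count table of a study in which S100a11 was silenced in a dietary model of steatohepatitis. All 32 names were found, each as 1 of the 43346 genes of the table, and all 32 had enough counts to be tested. RNA came from whole liver of mice fed the FFC diet. In 3 libraries, labelled 2, 3 and 2600, the mice carried an AAV8 (adeno-associated virus serotype 8) construct with a short hairpin RNA (shRNA) against S100a11, and the labels call their genotype a knockdown. In the other 3 libraries, labelled 28, 30 and 31, the shRNA was scrambled. Both groups thus share the diet and an shRNA, and no chow-fed or uninjected liver was analysed here. Of strain, age, sampling time and the promoter driving the hairpin the labels give nothing. They also do not state whether each library is a different animal, and the p-values therefore reflect variation among libraries, which may be technical.

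The unfolded protein response starts at 3 sensors in the membrane of the endoplasmic reticulum (ER): IRE1 (gene Ern1), PERK (gene Eif2ak3) and ATF6. IRE1 splices the Xbp1 transcript, and the resulting factor XBP1, together with the released fragment of ATF6, switches on chaperones, folding enzymes and the machinery of ER-associated degradation, which carries misfolded proteins back to the cytosol. PERK phosphorylates the translation factor eIF2alpha, as do kinases that sense amino acid shortage, double-stranded RNA or haem. That step slows protein synthesis but favours translation of ATF4, the factor of the integrated stress response, which acts with CHOP (gene Ddit3) on amino acid, redox and cell death genes. Hepatocytes secrete large amounts of protein, and both responses are known to be active in steatohepatitis. Gene counts show transcript levels, and neither the splicing of Xbp1, nor the cleavage of ATF6, nor the phosphorylation of eIF2alpha was measured.

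The members divide into 3 sensors, 2 factors (Xbp1 and Atf4), 14 chaperones and folding enzymes and 5 degradation genes as targets of ATF6 and XBP1, and 8 genes of the ATF4 and CHOP arm. Short elements before the genes are shown here because they are the sequences through which ATF6, XBP1 and ATF4 are known to act. The 250 bases before the start were read from RefSeq (GRCm38.p6, the assembly of mm10) for 29 members. The ER stress response element, searched on either strand as CCAAT, 9 bases of any kind and CCACG, binds NF-Y at its first 5 letters and ATF6 or XBP1 at its last 5. It was found before 9 of 29 members, against 0.113% of all 32851 windows: in 7 of 12 chaperone genes, 2 of 5 degradation genes and none of the 8 genes of the ATF4 and CHOP arm. The copies lay between 212 bases (Hsp90b1, which has a pair of them) and 44 bases (Syvn1) before the start, that of Hspa5 at chr2:34772025-34772043. Each is given 5′ to 3′ on the strand that carries it, with the fixed letters in capitals.
Hspa5: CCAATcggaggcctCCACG
Hsp90b1, far copy: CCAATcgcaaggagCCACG
Hsp90b1, near copy: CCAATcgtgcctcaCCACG
Calr: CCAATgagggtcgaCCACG
Canx: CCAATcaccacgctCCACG
Pdia6: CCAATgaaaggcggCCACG
Dnajc3: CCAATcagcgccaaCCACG
Creld2: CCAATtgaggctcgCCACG
Derl3: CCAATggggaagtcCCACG
Syvn1: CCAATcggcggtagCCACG

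The C/EBP-ATF response element, searched as TGATGNAA on either strand, is the element through which ATF4 acts. It was found before 4 members, Asns, Atf3, Chac1 and Herpud1, and in 3.45% of all windows. A shorter ER stress element, ATTGG, 1 base of any kind and CCACG, was found before Herpud1 alone among the members and in 0.0304% of all windows. The XBP1 core TGACGTGG was found before no member (0.563% of all windows) and the cyclic AMP element TGACGTCA before Ppp1r15a (1.55% of all windows). The windows of Herpud1 (chr8:94386179-94386428, plus strand) and Chac1 (chr2:119350992-119351241, plus strand) are printed because these genes stand for the ATF6 and ATF4 arms among the members that rose. Capitals mark the elements as they read on the plus strand. The C/EBP-ATF elements are on the minus strand and so appear as their reverse complement.
Herpud1: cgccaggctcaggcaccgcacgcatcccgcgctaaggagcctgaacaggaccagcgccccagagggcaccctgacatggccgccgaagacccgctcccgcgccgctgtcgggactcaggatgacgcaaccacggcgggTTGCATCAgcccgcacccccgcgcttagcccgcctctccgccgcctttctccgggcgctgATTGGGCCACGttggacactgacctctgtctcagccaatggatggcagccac
Chac1: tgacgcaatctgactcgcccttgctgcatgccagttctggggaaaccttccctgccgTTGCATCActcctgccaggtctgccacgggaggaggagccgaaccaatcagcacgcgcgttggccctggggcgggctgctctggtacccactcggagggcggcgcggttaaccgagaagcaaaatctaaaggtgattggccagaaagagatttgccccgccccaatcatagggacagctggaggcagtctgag

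Total counts ran from 53517387 to 78091845 per library. Levels are given as CPM, counts relative to a library total scaled by the trimmed mean of M values (TMM), and changes as log2 of S100a11 shRNA over scrambled with a standard error (SE). The TMM factors, which allow for a few very abundant transcripts, were 0.822 to 0.932 in the S100a11 shRNA libraries and 1.10 to 1.19 in the scrambled ones. S100a11 itself, a calcium-binding protein, stood at 3.55 and 3.41 CPM in libraries 3 and 2600, but at 16 CPM in library 2, beside 15.9 to 30.0 CPM in the scrambled libraries. Its log2 change of -1.57 ± 0.56 did not pass the test (edgeR adjusted p = 0.095), and was -2.75 (adjusted p = 0.00044) without library 2. Directions below are therefore those of the libraries labelled S100a11 shRNA. Hepatocyte markers, 10 genes including Alb, were abundant in every library and summed to 46067 to 60776 CPM in the S100a11 shRNA libraries and 37639 to 46125 CPM in the scrambled ones.

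In the scrambled livers the members covered a wide span of transcript level. Per kilobase of gene length, Calr, a calcium-binding chaperone, stood at 218 CPM per kb and Atf5, a factor induced by ATF4, at 215. Hsp90b1, the ER form of HSP90, and Herpud1, which helps assemble the degradation complex, both stood at 122. Calr and Atf5 did not differ beyond the spread of the scrambled libraries, nor did Hsp90b1 and Herpud1, while Atf5 was above Hsp90b1 in every scrambled library. Pdia3 (83.0) and Hspa5 (81.9) followed. At the low end stood Chac1 at 2.64, Derl3 at 1.99 and Asns, asparagine synthetase, at 0.189 CPM per kb. Among the transcription factors Xbp1 (39.2) and Atf4 (29.4) were far above Atf3 and Ddit3, which lie among the lower members in the plot of transcript level.

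**Figure D1:**
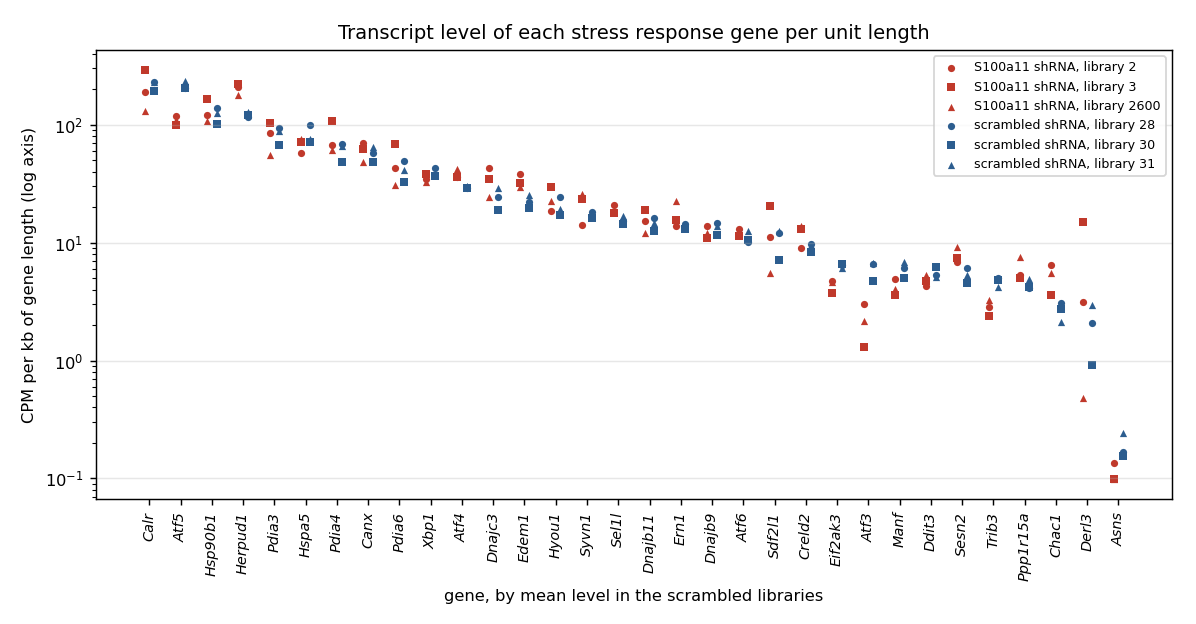
Transcript level of the 32 stress response genes in CPM per kilobase of gene length (log axis), ordered by the mean of the scrambled libraries, with 1 point per library. Calr and Atf5 (218 and 215 CPM per kb in scrambled livers) lead, Asns is lowest (0.189), and the S100a11 shRNA points of Derl3 are spread the most.

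Of the 32 members 3 rose, Herpud1, Edem1 and Chac1, and 4 fell, Atf5, Atf3, Trib3 and Eif2ak3, at an adjusted p under 0.05 over all 19352 genes tested. The background was 14.1% of all genes called in either direction, 5.82% higher and 8.28% lower, so that 7 of 32 members, 21.9%, is a somewhat larger share than that of all genes. The groups did not overlap in 13 members, 7 higher and 6 lower, where 34.7% of all genes did not overlap (16.5% higher, 18.1% lower). The median log2 change was 0.17 over the members and 0.04 over all genes. Without library 28, 30 or 31 none of the members rose and 2, 2 and 1 fell, and without library 3 the counts were 1 and 2. Calls over all genes fell in the same fits, from 1126 higher and 1602 lower to 508 and 1030, 221 and 503, 411 and 679, and 427 and 585. When library 2 was left out, 4 members rose, Herpud1, Creld2, Syvn1 and Sesn2, and Manf was among those that fell. The calls of Edem1 (edgeR adjusted p = 0.052) and Chac1 (0.063) were lost there, and 1806 genes were called higher and 2370 lower. Without library 2600, 2 members rose, and 814 genes were called higher and 1259 lower. The log2 changes of Herpud1, Edem1 and Chac1 stayed between 0.68 and 0.82, 0.43 and 0.67, and 0.75 and 1.18 when any 1 library was left out. With library totals in place of TMM, which moves the median of all genes by -0.36, 0 members rose and 8 fell. With upper-quartile factors 1 rose and 5 fell.

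**Figure D2:**
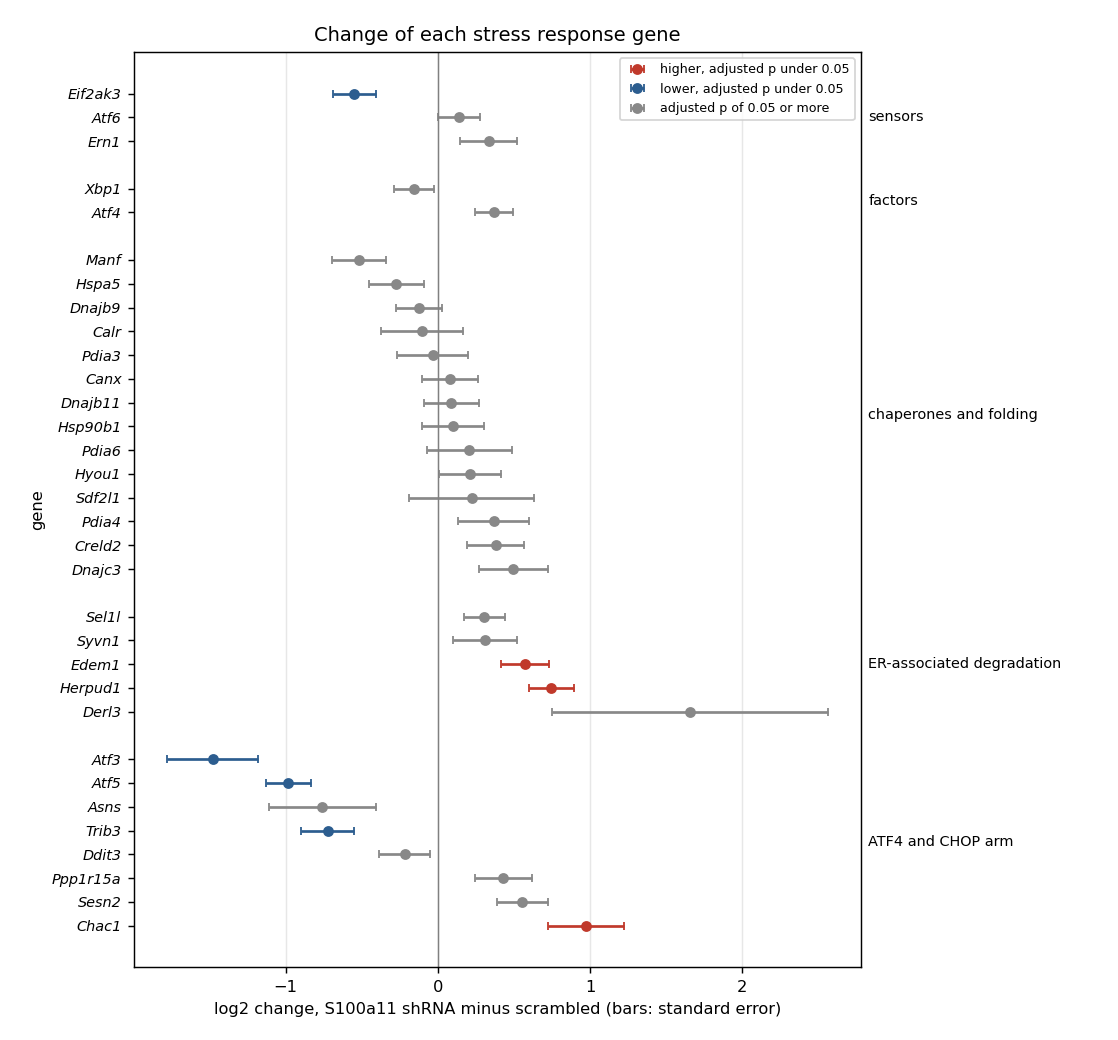
Log2 change of each member, S100a11 shRNA minus scrambled, with its standard error, grouped by role, from 3 libraries a group. Red and blue points passed the test (Herpud1, Edem1 and Chac1 higher, Eif2ak3, Atf3, Atf5 and Trib3 lower) and grey points did not, among them all 14 chaperones.

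Among the transcripts of the sensors, that of PERK fell and those of the other 2 did not pass the test. Eif2ak3, which encodes PERK, stood at 25.5, 20.1 and 25.4 CPM in libraries 2, 3 and 2600 and at 35.3, 35.6 and 32.9 CPM in scrambled libraries 28, 30 and 31. The groups did not overlap, and the log2 change was -0.55 ± 0.14 (edgeR adjusted p = 0.035), a level 1.46-fold lower. The call was lost without library 3, 2600, 28, 30 or 31 (adjusted p 0.11, 0.056, 0.11, 0.14 and 0.087) and without a filter on low counts (0.051). Exons of Eif2ak3 share 485 bases with Gm43292 on the opposite strand, a gene for which no counts were found. The strand setting of the counting is not given, so the value of Eif2ak3 is uncertain. Ern1, the gene of IRE1, stood at 141 ± 37.0 CPM against 112 ± 6.06 (SD, n = 3 each), with library 2600 highest at 183 CPM, and Atf6 at 113 ± 7.98 against 103 ± 11.7. Their adjusted p-values were 0.27 and 0.54 by edgeR.

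Neither factor passed the test. Atf4 stood at 61.5, 62.6 and 72.0 CPM in the S100a11 shRNA libraries and at 50.3, 49.8 and 52.1 CPM in the scrambled ones. Each S100a11 shRNA library was thus above each scrambled one, with a log2 change of 0.37 ± 0.12 (edgeR adjusted p = 0.086). Xbp1, counted over all its spliced forms, stood at 113, 124 and 106 CPM against 139, 120.0 and 123 CPM. These ranges overlapped, with a log2 change of -0.15 ± 0.13 (adjusted p = 0.48). Since the liver was sequenced in bulk, fewer cells of a type and less RNA per cell cannot be told apart for any of these genes.

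No member of the 14 chaperones and folding enzymes passed the test in either direction, where 14.1% of all genes did. Their median log2 change was 0.09, beside 0.04 for all genes, and -0.26 beside -0.32 with library totals alone. With that scaling 2 of them, Hspa5 and Manf, were called lower (adjusted p 0.023 and 0.011). Hspa5 (BiP), the chief ER chaperone and the usual gauge of the response, stood at 242, 301 and 318 CPM in the S100a11 shRNA libraries and at 419.8, 301 and 318 CPM in the scrambled ones. Both groups thus shared the middle of the range, and only library 2 lay below it and library 28 above it. Hspa5 changed by -0.27 ± 0.18 on the log2 scale (edgeR adjusted p = 0.36). Hsp90b1 stood at 484, 664 and 430.0 CPM against 553, 411 and 510 CPM. Its exons share 84 bases with Gm15344 and 133 with Gm25745 on the same strand, and 415 with 1810014B01Rik on the opposite strand. Calr, which holds new glycoproteins until they are folded, stood at 548, 832 and 376 CPM against 663, 557 and 666 CPM. In both of these, library 3 was the highest of all 6 and the groups overlapped.

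Some libraries held the same place in their group across many of the chaperones. Scrambled library 30 held the lowest scrambled value for 14 of 14 of them. Among the S100a11 shRNA libraries the order was less regular. Library 3 was highest for 8 of 14 and lowest for 2, and library 2600 was lowest for 9 of 14 and highest for 2. Relative to the scrambled mean, the median chaperone stood at 0.04, 0.42 and -0.21 (log2) in libraries 2, 3 and 2600, and at 0.17, -0.25 and 0.07 in libraries 28, 30 and 31. The same 2 libraries, 2600 and 30, also held the lowest median of the translocon and glycosylation genes, at -0.30 and -0.22. The widest spread was in Sdf2l1, a partner of BiP, at 12.4, 22.5 and 6.16 CPM against 13.4, 7.85 and 14 CPM, which is 3.65-fold from lowest to highest within the S100a11 shRNA libraries.

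Manf and Dnajc3 had the largest changes of the 14, in opposite directions. Manf, a secreted ER protein, was the only chaperone gene without overlap, at 17.2, 12.6 and 14.2 CPM against 21.4, 17.6 and 24.0 CPM. Its log2 change of -0.52 ± 0.18 missed the threshold (edgeR adjusted p = 0.085) and passed it without library 2 (0.020), with upper-quartile factors (0.042) and with library totals (0.011). Exons of Manf share 146 bases with Dcaf1 on the opposite strand, which held 22202 counts in all libraries against 7254 of Manf, and the strand setting of the counting is not given, so its value is uncertain. Dnajc3, a co-chaperone that also restrains PERK, stood at 177 ± 48.3 CPM against 125 ± 26.1 CPM (log2 change 0.50 ± 0.23, edgeR adjusted p = 0.19). Creld2, a redox protein of the ER, had a log2 change of 0.38 ± 0.19, and passed only without library 2 (adjusted p = 0.033). Hyou1, Canx, Pdia3, Pdia4, Pdia6, Dnajb9 and Dnajb11 had log2 changes between -0.12 and 0.37, with adjusted p of 0.34 or more. Exons of Pdia4 share 14 bases with Mir704 on the same strand, which held 9445 counts in all libraries against 68287 of Pdia4.

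The 5 degradation genes all had a higher mean in the S100a11 shRNA libraries, though with library totals alone Sel1l and Syvn1 did not (log2 -0.050 and -0.063). Of the 5, 2 rose, beside 5.82% of all genes. The median log2 change of the 5 was 0.57. Herpud1, the member with both an ER stress element and a C/EBP-ATF element in its window, stood at 488, 521 and 418 CPM in libraries 2, 3 and 2600. In scrambled libraries 28, 30 and 31 it stood at 273, 280.02 and 298 CPM. Every S100a11 shRNA library was above every scrambled one, and Herpud1 rose 1.68-fold (log2 0.75 ± 0.15, edgeR adjusted p = 0.015). The Herpud1 call was lost without library 3, 28, 30 or 31, at adjusted p of 0.058, 0.060, 0.072 and 0.054, and with library totals (0.11).

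Edem1, which extracts misfolded glycoproteins from the folding cycle, stood at 224, 189 and 173 CPM against 129, 115 and 149 CPM. The groups did not overlap, and Edem1 rose 1.49-fold (log2 0.57 ± 0.16, edgeR adjusted p = 0.043). That call lay close to the threshold: it was lost without library 2, 3, 28, 30 or 31 (adjusted p 0.052, 0.095, 0.13, 0.18 and 0.070), with upper-quartile factors (0.060), with library totals (0.36), with no filter (0.052) and with the older quasi-likelihood method (0.051). Sel1l and Syvn1 form the ubiquitin ligase of the pathway. Sel1l stood at 179.7, 152 and 159 CPM against 131, 124 and 143 CPM, without overlap, and did not pass (log2 0.31 ± 0.13, adjusted p = 0.16). Syvn1 stood at 67.6, 112 and 123 CPM against 86.6, 77 and 80.4 CPM, so that library 2 lay below the scrambled range and the other 2 libraries above it. Its log2 change was 0.31 ± 0.21 (edgeR adjusted p = 0.37), and 0.50 without library 2 (0.023). Exons of Syvn1 share 91 bases with Mrpl49 on the opposite strand, which held 4251 counts in all libraries against 34877 of Syvn1.

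Derl3, a membrane channel component of degradation found mainly in secretory cells, rested on 1 library. It held 271, 1262 and 28 counts in libraries 2, 3 and 2600 and 186, 85 and 343 counts in the scrambled ones, that is 4.20, 20.2 and 0.637 CPM against 2.76, 1.24 and 3.96 CPM. The S100a11 shRNA libraries thus held both the highest and the lowest value, 31.7-fold apart. The log2 change of 1.65 ± 0.91 (edgeR adjusted p = 0.26) became -0.083 without library 3. B and plasma cell markers summed to 20.7 to 25.4 CPM in the S100a11 shRNA libraries and 42.4 to 96.1 CPM in the scrambled ones (3 of 10 tested fell, and Tnfrsf17 was at 0 in all 3 S100a11 shRNA libraries). Pancreatic acinar markers summed to 2.52 to 3.01 CPM against 2.95 to 10.01 CPM (1 of 2 tested fell, with Pnlip and Prss2 at 0 in the S100a11 shRNA libraries). The part of these cells in the Derl3 values was not tested.

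**Figure D3:**
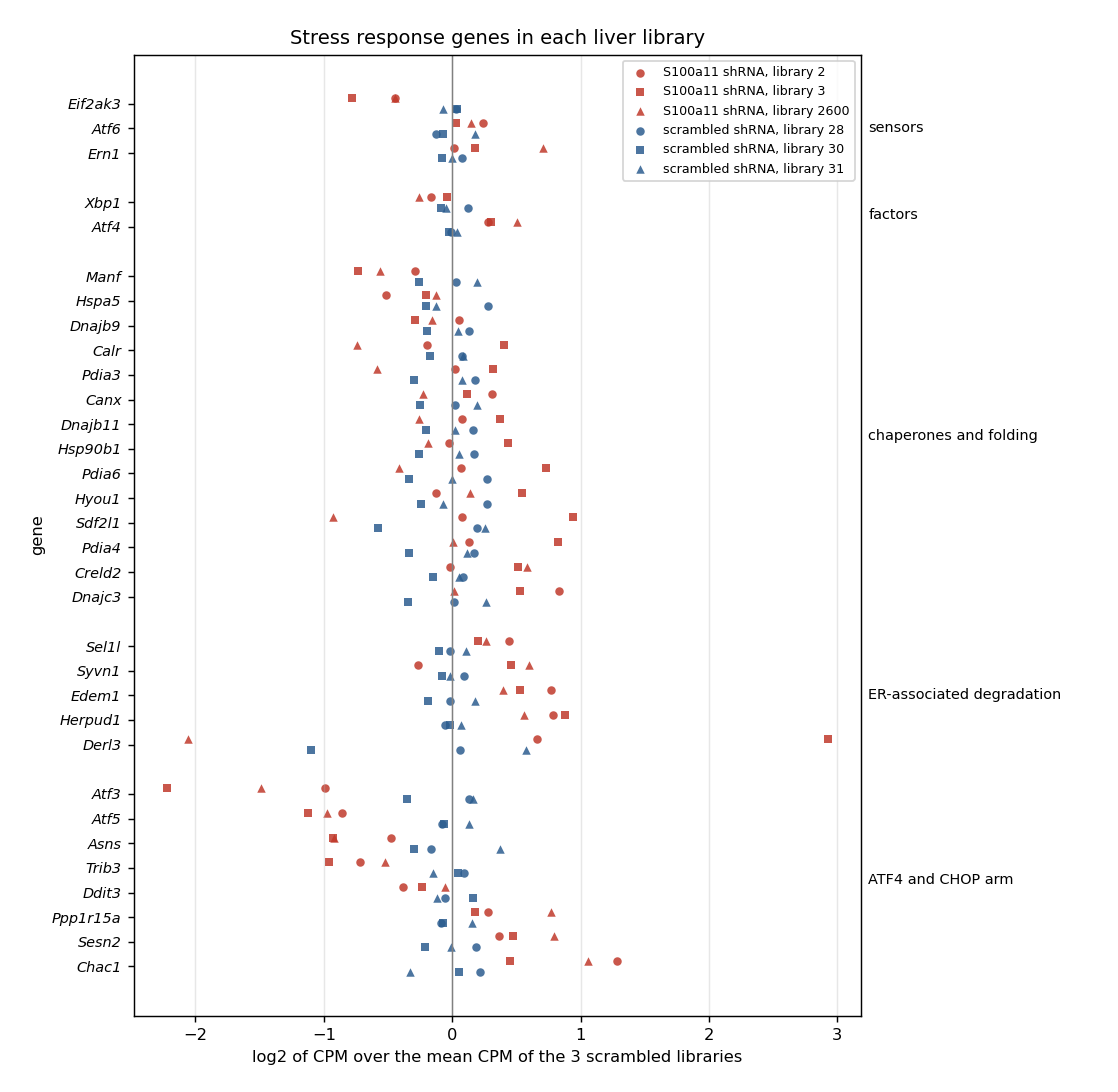
Log2 of CPM over the mean of the 3 scrambled libraries for each of the 32 members, by role, with 1 symbol per library (red S100a11 shRNA, blue scrambled). Herpud1, Edem1, Sel1l, Atf4, Chac1, Sesn2 and Ppp1r15a separate to the right, and Eif2ak3, Manf, Atf5, Atf3, Trib3 and Asns to the left. Among the chaperones library 3 is often at the right and scrambled library 30 at the left of its group.

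In the ATF4 and CHOP arm the groups did not overlap in 7 of 8 members, beside 34.7% of all genes, yet the members went in opposite directions. In this arm 3 fell and 1 rose, where 8.28% of all genes were called lower and 5.82% higher. The median log2 change was -0.47, beside 0.04 for all genes. Atf5 had the lowest adjusted p of all members. This factor, which follows ATF4 and governs mitochondrial and survival genes, stood at 236, 197 and 217 CPM in the S100a11 shRNA libraries and at 405, 409 and 469.7 CPM in the scrambled ones. The highest S100a11 shRNA value was well under the lowest scrambled one, a 1.98-fold fall (log2 -0.98 ± 0.15, edgeR adjusted p = 0.0061). Atf5 was called under all 17 alternatives, with an adjusted p of at most 0.031. Its exons share 82 bases with Nup62 and 82 with Il4i1 on the opposite strand. Il4i1 held 2454 counts in all libraries against 133169 of Atf5. The strand setting of the counting is not given, so the part of these bases in the Atf5 values is uncertain.

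Atf3, a stress-induced repressor, stood at 6.54, 2.78 and 4.62 CPM against 14.2, 10.2 and 14.5 CPM. It fell 2.79-fold without overlap (log2 -1.48 ± 0.30, edgeR adjusted p = 0.015), and the call was lost only without library 31 (0.052). Trib3, a pseudokinase that feeds back on ATF4 and CHOP, stood at 6.04, 5.11 and 6.94 CPM against 10.6, 10.2 and 8.96 CPM. It fell 1.65-fold (log2 -0.72 ± 0.18, adjusted p = 0.029), and the call was lost without library 3, 28, 30 or 31 (adjusted p 0.095, 0.099, 0.12 and 0.065). Asns, a classical ATF4 target, was scarce, with 24, 17 and 12 counts against 31, 29 and 58 counts. Its groups did not overlap, but the log2 change of -0.76 ± 0.35 did not pass (adjusted p = 0.19).

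Chac1, which degrades glutathione and is induced by ATF4 and ATF3, went the other way. It stood at 10.6, 5.90 and 9.03 CPM in the S100a11 shRNA libraries and at 5.04, 4.49 and 3.45 CPM in the scrambled ones. The groups were close at their nearest points, library 3 and library 28, and Chac1 rose 1.97-fold (log2 0.97 ± 0.25, edgeR adjusted p = 0.035). The Chac1 call was lost without library 2, 2600, 28, 30 or 31 (adjusted p 0.063, 0.089, 0.063, 0.11 and 0.12), with upper-quartile factors (0.051), with library totals (0.12) and with voom quality weights (0.052).

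Sesn2, a sestrin that restrains mTORC1, stood at 23.7, 25.5 and 31.9 CPM against 21, 15.9 and 18.3 CPM. The groups did not overlap (log2 0.55 ± 0.17, edgeR adjusted p = 0.060). Sesn2 passed with DESeq2 (0.029), with voom quality weights (0.035) and without library 2 (0.030). Ppp1r15a (GADD34), which ends the response by recruiting the phosphatase of eIF2alpha, stood at 15.7, 14.6 and 22 CPM against 12.1, 12.3 and 14.3 CPM, again without overlap and not called (log2 0.43 ± 0.19, adjusted p = 0.16). Ddit3, the gene of CHOP, was the 1 gene of the arm whose groups overlapped, at 7.28, 8.07 and 9.12 CPM against 9.13, 10.6 and 8.72 CPM (log2 -0.22 ± 0.17, adjusted p = 0.42). Its exons share 68 bases with Mars on the opposite strand, so that its counts are uncertain.

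Set side by side, the arms gave these counts and medians. Over the 19 targets of ATF6 and XBP1, 2 rose and none fell by edgeR, and the means of 14 were higher and of 5 lower. Of the 19, 4 had groups without overlap, beside 34.7% of all genes. Over the 8 genes of the ATF4 and CHOP arm the means of 3 were higher and of 5 lower. The median log2 change was 0.21 for the 19 targets and -0.47 for the 8 genes, and -0.14 and -0.84 with library totals alone. Without library 3 the first of these medians was -0.047, and without scrambled library 30 it was 0.064, while the second lay between -0.51 and -0.39 when any 1 library was left out. It was -0.25 when genes had to reach 1 CPM in 3 libraries, a filter that removes Asns. Library by library, the 19 targets had medians of 0.07, 0.46 and -0.16 against 0.09, -0.24 and 0.08. The 8 genes had medians of -0.43, -0.58 and -0.29 against 0.02, -0.07 and 0.06, so that each S100a11 shRNA library lay below each scrambled one, with library 3 lowest of its group for 6 of the 8. The difference between the arms was not tested.

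**Figure D4:**
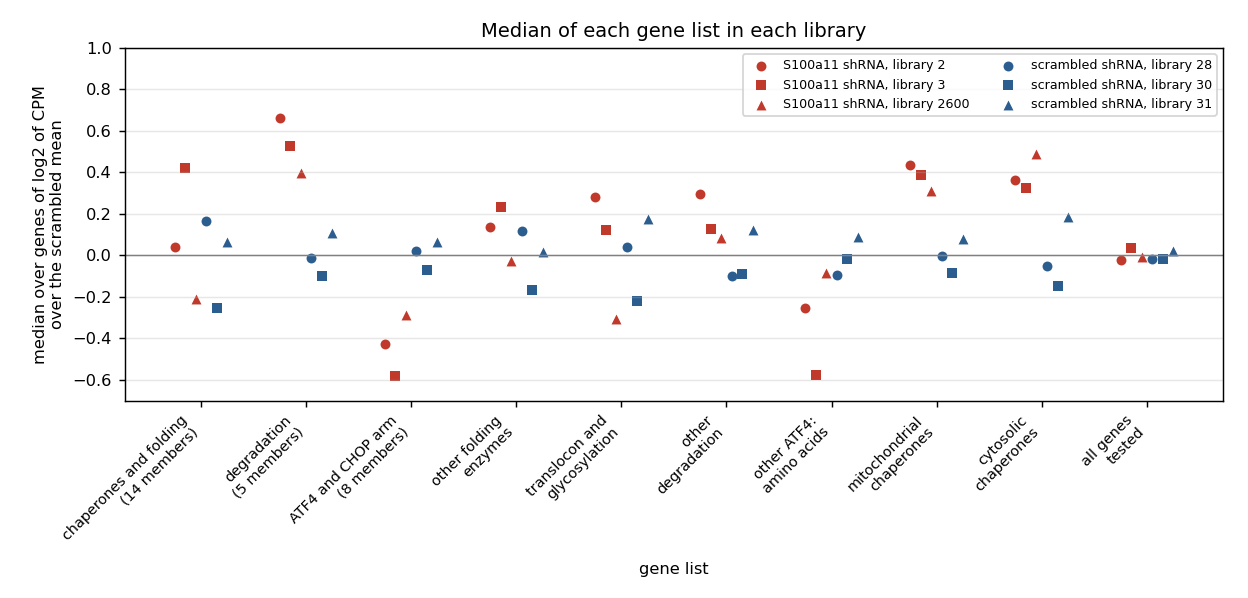
Median over the genes of each list of log2 CPM over the scrambled mean, with 1 symbol per library. The 5 degradation genes (0.66, 0.53 and 0.40 in libraries 2, 3 and 2600) lie above and the ATF4 and CHOP arm below the scrambled libraries with TMM scaling, and the chaperone medians of the groups interleave.

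Beside the elements in the windows, the changes were mixed. None of the 9 genes with the longer ER stress element was called by edgeR, where 14.1% of all genes were, 5.82% higher and 8.28% lower. Their log2 changes ran from -0.27 (Hspa5) to 1.65 (Derl3), with a median of 0.21. Among these, Hspa5 passed with library totals alone (0.023, lower) and Syvn1 and Creld2 without library 2 (0.023 and 0.033, higher). Herpud1, with the shorter ER stress element, rose. Of the 4 genes with a C/EBP-ATF element, Herpud1 and Chac1 rose, Atf3 fell and Asns was not called.

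Further genes of the pathway were taken from lists. Of 123 such genes tested, 13 rose and 9 fell, 17.9% against the 14.1% of all genes. These counts fell to 4 and 2 without library 3, 7 and 6 without 2600, and 4 and 5, 1 and 2, and 5 and 2 without 28, 30 and 31, and were 15 and 15 without library 2. With library totals alone 1 of these genes was higher (Slc38a2, adjusted p = 0.040) and 20 lower. None of 20 other folding enzymes and none of 20 translocon and glycosylation genes was called by edgeR. Of 20 other degradation genes 3 rose and none fell, so that 15% were called, beside 14.1% of all genes. These were Marchf6, a ubiquitin ligase of the ER membrane (1.67-fold, adjusted p = 0.022), Nploc4, a cofactor of the extracting ATPase (1.43-fold, 0.035), and Ngly1, which strips glycans (1.35-fold, 0.043). With upper-quartile factors Nploc4 (0.054) and Ngly1 (0.086) were not called. With library totals alone 0 of the 20 rose and 1 fell.

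The amino acid genes under ATF4 moved in both directions, with 4 of 16 rising and 3 falling, beside 5.82% and 8.28% of all genes. In 11 of 16 the groups did not overlap, beside 34.7% of all genes. The log2 changes of 7 were positive and of 9 negative, with a median of -0.26, beside 0.04 for all genes. Slc38a2, a transporter of neutral amino acids, stood at 188, 223 and 216 CPM against 111, 119 and 125 CPM and rose 1.77-fold (edgeR adjusted p = 0.0079). The glycine transporter Slc6a9 rose 1.76-fold (0.0099) and Cth, of cysteine synthesis, 1.73-fold (0.011). Slc7a1, a transporter of arginine and lysine, fell 1.98-fold (0.013). With library totals alone 1 of the 16 amino acid genes rose and 7 fell, at a median log2 change of -0.62, beside -0.32 for all genes. Of 11 tRNA synthetase genes tested 1 rose, Aars1 (1.49-fold, edgeR adjusted p = 0.029), beside 5.82% of all genes.

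Among 13 regulators and secreted signals of the ATF4 and CHOP arm 2 rose and 4 fell, beside 5.82% and 8.28% of all genes. Fgf21, a hormone that the liver secretes under ATF4, stood at 5.28, 8.41 and 5.62 CPM against 22.9, 17.8 and 14.7 CPM and fell 2.87-fold (edgeR adjusted p = 0.0069). Tnfrsf10b, a death receptor induced by CHOP, fell 2.96-fold (0.017). Cebpb, a C/EBP partner of ATF4, rose 1.81-fold (0.022) and Nfe2l1, an ER-bound factor of proteasome genes, 1.48-fold (0.039). Of 12 eIF2 kinases, eIF2 and eIF2B subunits and phosphatase genes only Ppp1r15b, the constitutive partner of the phosphatase that GADD34 also serves, was called (1.55-fold higher, 0.040).

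The other ER membrane transducers split 2 and 2 among 11 tested, where 5.82% of all genes were called higher and 8.28% lower. With upper-quartile factors 1 rose and 3 fell, and with library totals alone 0 rose and 4 fell. Creb3l3, a hepatocyte factor cleaved like ATF6, stood at 339, 425 and 419 CPM against 241, 242 and 234 CPM and rose 1.65-fold (edgeR adjusted p = 0.016). Mbtps1, the protease that makes the first cut in ATF6, rose 1.37-fold (0.046). Creb3l1, a related factor of matrix-secreting cells, stood at 3.02, 1.82 and 1.80 CPM against 6.33, 7.24 and 9.47 CPM and fell 3.45-fold (0.0060), and Creb3l2 fell 1.65-fold (0.017).

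Chaperones outside the ER were measured for comparison. Of 12 cytosolic heat shock genes 4 rose and none fell, beside 5.82% and 8.28% of all genes. Those that rose were Hsph1 (2.23-fold, edgeR adjusted p = 0.0061), Hspa1b (1.61-fold, 0.021), Dnaja1 (1.63-fold, 0.034) and Dnajb1 (1.63-fold, 0.036). The median log2 change of the 12 was 0.37, and 0.013 with library totals alone, where Hsph1 was the 1 gene called (adjusted p = 0.0092). Of 11 mitochondrial chaperones and proteases 7 were higher without overlap, beside 16.5% of all genes. Afg3l2 rose 1.36-fold (0.045), and the list's median was 0.43. With library totals alone that median was 0.068 and Afg3l2 was not called (0.68).

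**Figure D5:**
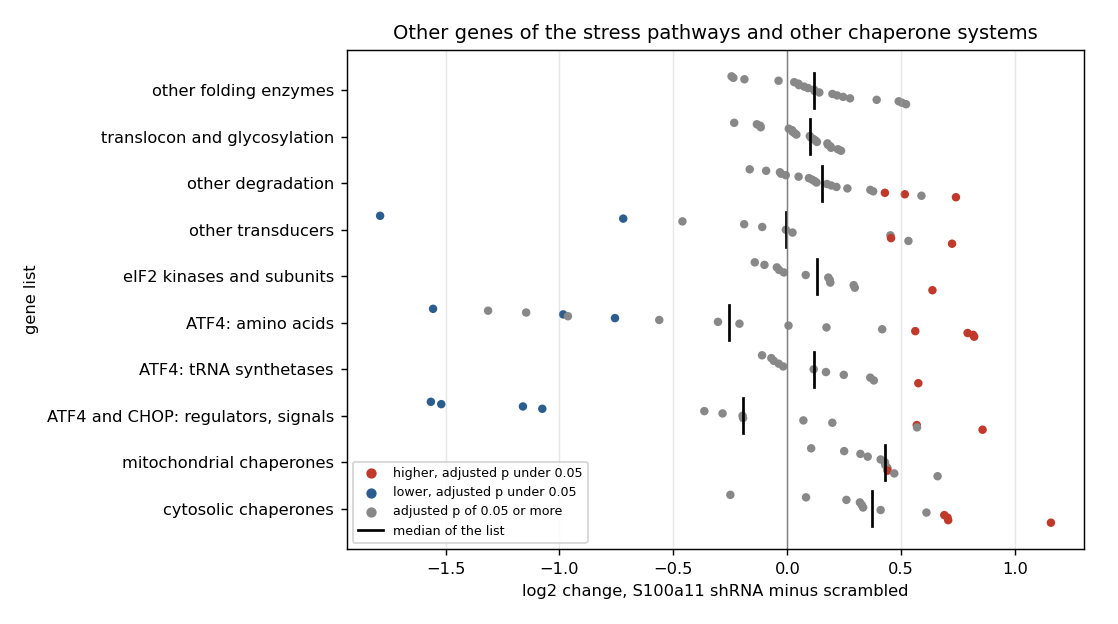
Log2 change of each gene in 10 further lists, S100a11 shRNA minus scrambled, with the median of each list as a black line. Folding and translocon genes cluster near 0 without a call, while the ATF4 lists spread from the 2.96-fold fall of Tnfrsf10b to the 1.81-fold rise of Cebpb.

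Other values moved with the groups, and their part in the results on the members was not tested. The non-coding gene Gm26917, among the most abundant, stood at 42784, 71910.2 and 132012 CPM against 37042, 37088 and 28538 CPM, without overlap and not called (edgeR adjusted p = 0.24). With Gm26917 left out of the fit, the 7 members called were called again. Lipid-associated macrophage markers fell in 8 of 8 genes (summed level 123 to 244 CPM against 730.2 to 926 CPM), bile duct markers in 7 of 8 (157 to 179.6 against 511 to 629 CPM) and stellate cell markers in 5 of 8 (424 to 764 against 927 to 1320.0 CPM), and no marker of these 3 lists was at 0 throughout the S100a11 shRNA libraries. Hepatocyte markers rose in 2 of 10 genes, Kupffer cell markers in 1 of 8 (170.0 to 461 against 239.5 to 409 CPM), and endothelial markers rose in 1 and fell in 1 of 8 (810.0 to 1143 against 792 to 894 CPM). None of 8 T and NK cell markers was called by edgeR (5.35 to 6.99 against 6.47 to 10.6 CPM). Clock genes, which set daily rhythms of liver transcripts, also differed: 3 of 14 rose and 1 fell, beside 5.82% and 8.28% of all genes. Cry1 led those that rose (4.27-fold, edgeR adjusted p = 0.0037), Npas2 fell (6.79-fold, 0.031), and sampling times are not given.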

How the data were processed

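Liver RNA was isolated with Trizol, and stranded libraries were made from 100 ng of total RNA after ribosomal depletion, per the labels. The authors deposited raw counts per gene. The submitters' processing notes name mm10. No aligner, counter or strand setting is recorded there or in the labels. The deposited table also holds gene lengths.

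The whole table was fitted in edgeR 4.0.16 (R 4.3.3): filterByExpr (minimum count 10, minimum total 15, 19352 genes left), TMM, quasi-likelihood F test, Benjamini-Hochberg adjustment, threshold 0.05. SE is the log2 change divided by the square root of F. Alternatives were RLE and upper-quartile factors, library totals alone, at least 1 CPM in 3 libraries, no low-count filter, dropping Gm26917 or the 20 most abundant genes, DESeq2 1.42.0, limma 3.58.1 voom with and without quality weights, and each library left out. The legacy quasi-likelihood was added after seeing the data. Scripts were tested on simulated data.

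The members and lists were chosen with earlier results of these data known. Named genes are the 32 members, S100a11 and, of each other list, up to 4 genes past the threshold with the lowest p. Of 269 list genes, 268 were matched. The lowest member count in a library was 12 (Asns). No interval beyond the SE is given.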

Additional observations from a re-analysis of the deposited data

How the results depend on the processing

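No paired analysis was possible because the groups share no replicate numbers. Over 17 alternatives, 473 of 543 values of single members kept their direction and side of the threshold, 33 lost a call, 11 gained one and 26 changed sign. Most of these values belong to members that were not called and so could not lose a call. Of the members called, Edem1 lost its call under 9 of the 17 alternatives, Chac1 under 8, Eif2ak3 under 6 and Herpud1 under 5. Trib3 lost it under 4, Atf3 under 1 and Atf5 under 0.

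The members that rose (3) became 1 with upper-quartile factors and 0 with library totals alone, and ranged from 0 to 4 when 1 library was left out. Those that fell (4) became 8 with library totals alone and ranged from 1 to 5. Other pathway genes that rose (13) became 7 with upper-quartile factors and 1 with library totals alone, and ranged from 1 to 15, and those that fell (9) became 20 with library totals alone and ranged from 2 to 15. Over all genes the split of 1126 higher and 1602 lower became 816 and 1980 with upper-quartile factors and 397 and 3970 with library totals alone.

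The median of the ATF6 and XBP1 targets was -0.14 with library totals alone and -0.047 to 0.33 with 1 library left out. That of the ATF4 and CHOP arm was -0.84 with library totals alone, -0.25 with at least 1 CPM in 3 libraries, where Asns drops out, and -0.51 to -0.39 with 1 library left out. S100a11 was -1.90 with library totals alone, -1.89 with voom and -2.24 with quality weights (adjusted p 0.042, 0.042 and 0.0080), and -2.75 to -1.22 with 1 library left out.

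With library totals alone the sign changed in Ern1 (-0.042), Atf6 (-0.22), Hsp90b1 (-0.25), Hyou1 (-0.14), Canx (-0.26), Pdia6 (-0.14), Dnajb11 (-0.26), Sdf2l1 (-0.11), Sel1l (-0.050) and Syvn1 (-0.063). It changed with upper-quartile factors in Canx (-0.0098) and Dnajb11 (-0.0061), and with quality weights in Pdia3 (0.044). With 1 library left out the ranges that crossed 0 were -0.10 to 0.21 in Hsp90b1, -0.44 to 0.11 in Calr, -0.078 to 0.21 in Canx, -0.25 to 0.16 in Pdia3, -0.15 to 0.42 in Pdia6, -0.080 to 0.21 in Dnajb11, -0.33 to 0.55 in Sdf2l1 and -0.083 to 2.16 in Derl3. Library totals alone moved the median of all genes by -0.36. The cause of the other changes was not tested. Counts were low for Asns, at 12 to 58 per library, and for Derl3 in library 2600, at 28.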
